A study of Caenorhabditis elegans with 30 samples.

Results

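The cysteine cathepsins, aspartyl proteases, saposin-like proteins and invertebrate lysozymes of Caenorhabditis elegans were followed across 6 groups of whole worms that differed in ethanol exposure, recovery time and genotype. Members were all genes whose WormBase symbol starts with cpr-, cpl-, cpz-, asp-, spp- or ilys- and whose raw count averaged at least 1 over the 30 libraries. They numbered 50 of the 16934 genes that reached this mean, in a table of 46739 genes. Among 64 genes with such symbols, 14 did not reach it. Of the members, 7 were cathepsin B-like (cpr), 1 was cathepsin L-like (cpl-1), 2 were cathepsin Z-like (cpz), 11 were aspartyl proteases (asp), 25 were saposin-like (spp) and 4 were invertebrate lysozymes (ilys). The member nearest to the limit was spp-20, with a mean of 1.03 counts, and the nearest gene outside it was ilys-6, with 0.867.

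First-day adult hermaphrodites were measured by RNA sequencing, with 5 libraries per group. One pair of groups carried swsn-9(ok1354), a deletion allele of a gene for a subunit of the SWI/SNF chromatin remodeling complex, and spent 18 h on plates with ethanol at 400 mM or without it (0 mM), with harvest at once. Wild-type (N2) worms had the same exposures and a harvest either 6 h after removal from ethanol (6 h postexposure) or immediately (0 h). All worms went onto their sealed plates at the L4 stage and became young adults there. The mutant was a single strain, RA503, and a 6 h recovery of this strain is not analysed here. Each library came from many pooled worms, so the spread between libraries is that between pools. The study asked which transcripts change with prolonged ethanol exposure, whether they return after ethanol is removed and which changes need swsn-9.

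These families work largely in the gut lumen and in lysosomes. Cathepsins B, L and Z are cysteine proteases, and the asp genes encode relatives of pepsin and cathepsin D, so that both classes cut protein at acid pH. Saposin-like proteins bind or break membranes, some as helpers of lysosomal lipid breakdown and some, in worms, as pore-forming peptides against ingested bacteria. Invertebrate lysozymes cut bacterial cell walls. In C. elegans, which feeds on bacteria, many of these genes are expressed in the intestine.

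Levels are counts scaled to library size (CPM) with factors by the trimmed mean of M-values (TMM) over the 30 libraries, and between genes they are compared per kb of exon. The highest members per kb, averaged over all libraries, were asp-1, an intestinal aspartyl protease, at 1489.5 CPM per kb, and cpl-1, an essential cathepsin L of development and yolk processing, at 1179 CPM per kb. They were followed by asp-6 (882 CPM per kb), spp-17 (757), cpr-6 (607), asp-3 (603), cpr-9 (592), cpr-1 (475), spp-5 (474) and cpr-5 (466). At the low end, spp-6, spp-7, spp-13, spp-19 and spp-20 averaged between 0.0628 and 0.329 CPM per kb and had at most 3 reads in 22 to 29 of the 30 libraries. The most abundant members thus came from the cysteine cathepsins, the aspartyl proteases and the saposins, while among the lysozymes only ilys-5 (295 CPM per kb) exceeded 5 CPM per kb. Adjacent genes in this order often differed by less than their spread. In swsn-9 worms at 400 mM, for example, cpr-5 had 442 ± 38.3 and asp-5 436 ± 24.9 CPM per kb, whereas cpr-1 had 1113 ± 122.1 (SD, n = 5 each).

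**Figure D1:**
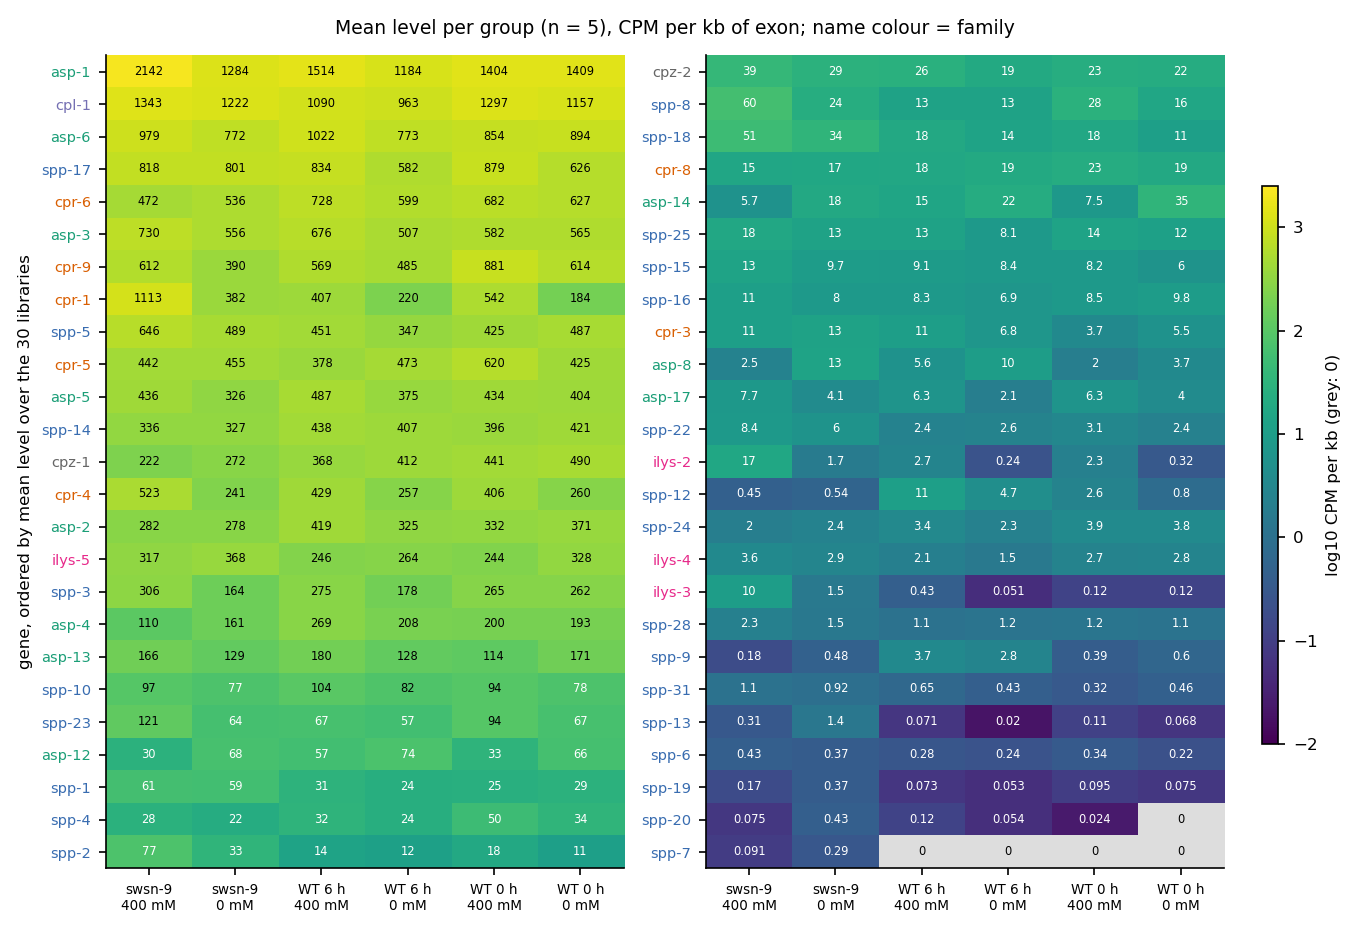
Mean level of each of the 50 members in the 6 groups (n = 5 libraries each), in CPM per kb of exon, printed in each cell and coloured on a log10 scale, with genes ordered by their mean over the 30 libraries and grey for a level of 0. The cpr-1 row runs between 184 CPM per kb in wild type at 0 mM and 0 h and 1113 in swsn-9 worms at 400 mM, and the spp-7 row holds 0 in all 4 wild-type groups.

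All members together took 1.49% ± 0.0756 of the counted reads in swsn-9 worms at 400 mM, against 1.08% ± 0.0638 in swsn-9 worms at 0 mM (SD, n = 5 each). The ranges of these 2 groups did not overlap (1.40% to 1.58% against 1.001% to 1.18%). The share in wild type at 6 h was 1.15% ± 0.116 at 400 mM and 0.959% ± 0.0933 at 0 mM, and at 0 h it was 1.22% ± 0.0861 at 400 mM and 1.06% ± 0.117 at 0 mM, with overlapping ranges at both times. The cathepsin B-like genes alone took 0.384% ± 0.0277 in wild type at 400 mM and 0 h, against 0.254% ± 0.0183 at 0 mM, without overlap. The aspartyl proteases took 0.504% ± 0.0501 and 0.502% ± 0.0949 of the reads in these same groups. On the TMM scale, all members summed to 12670 to 14500 CPM in swsn-9 worms at 400 mM and 9555 to 10990 CPM at 0 mM. Wild type at 400 mM had 11130 to 12840 CPM at 6 h and 11100 to 13130 CPM at 0 h, both overlapping with the mutants at 400 mM.

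**Figure D2:**
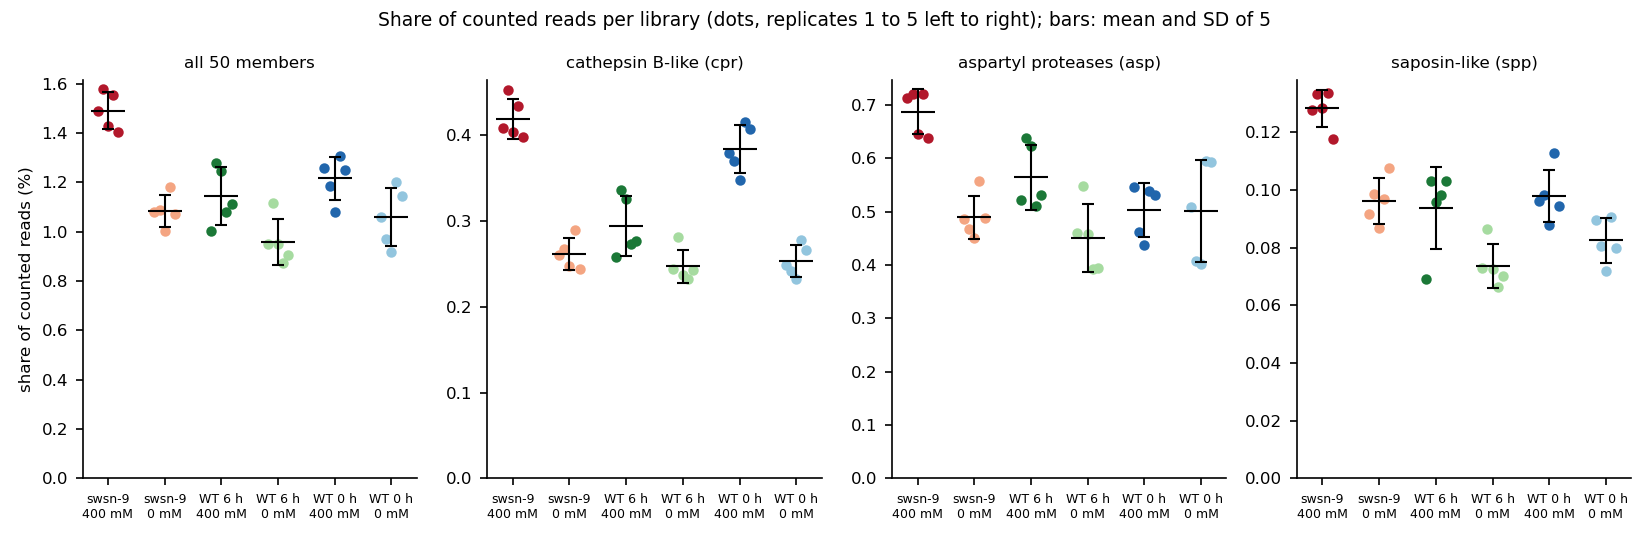
Share of counted reads (%) taken by all 50 members and by the 3 largest families in each library, with replicates 1 to 5 from left to right within a group and the mean and SD of 5 as bars. The swsn-9 libraries at 400 mM hold 1.40% to 1.58% for all members, above every other library of the 30 by this share. On the TMM scale their summed levels overlap with those of wild type at 400 mM.

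The libraries held 11812827 to 23505210 counted reads, with a median of 16480465, and limits set by these totals cover counting error only. The transcript of swsn-9 itself was at 61.1 ± 2.23 CPM in mutants at 400 mM and 59.5 ± 5.03 CPM in mutants at 0 mM (SD, n = 5 each), below all wild-type libraries (182 to 215 CPM). Ribosomal RNA genes took over 5% of the counts in 3 wild-type libraries, namely 18.0% in replicate 1 at 400 mM and 6 h, 5.75% in replicate 1 at 0 mM and 6 h, and 6.43% in replicate 5 at 0 mM and 0 h. Marker genes of intestine, pharynx, body muscle, hypodermis, neurons, germline, sperm and coelomocytes were each counted in at least 1 library. The 8 intestinal markers summed to 717 to 855 CPM in swsn-9 worms at 400 mM and 840 to 983 CPM at 0 mM. In wild type their sums were 647 to 708 and 586 to 727 CPM at 6 h (400 and 0 mM), and 624.8 to 798 and 795 to 940 CPM at 0 h (400 and 0 mM). The largest part of these sums was act-5, at 274.6 ± 30.51 CPM in swsn-9 worms at 400 mM and 401.3 ± 42.55 CPM at 0 mM. The sums thus do not show a common direction of the 8 markers, of which 3 were higher and 2 lower with ethanol in mutants by the tests below.

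Ethanol raised more members than it lowered in all 3 settings. In swsn-9 mutants, 21 of 50 members were higher at 400 mM and 6 were lower, called by edgeR's quasi-likelihood test at an adjusted p under 0.05, where over all genes 10.1% were called higher and 14.3% lower. At 6 h in wild type, 18 of 46 tested members were higher and 1 was lower, beside 2.78% and 1.16% of all genes. At 0 h in wild type, 13 of 46 were higher and 3 lower, beside 6.81% and 5.94% of all genes. The median log2 fold change of the members was 0.31 in mutants, 0.38 in wild type at 6 h and 0.11 in wild type at 0 h, whereas the medians over all genes were −0.012, 0.019 and 0.0053. In this order, other gut and lysosome hydrolases had medians of −0.029, 0.12 and −0.042, and the lys lysozymes 0.16, 0.56 and 0.13. Intestinal markers had 0.12, 0.26 and −0.017, and transcription factors linked to gut and lysosome genes 0.41, 0.32 and 0.051. Across the 3 comparisons, cpr-1, cpr-4, cpl-1, spp-10 and ilys-2 were called higher each time, and no member was called lower each time. In all, 34 members were called in at least 1 of them and 16 in none, namely asp-6, cpr-3, cpr-8, cpz-1, ilys-4 and 11 saposins (spp-1, spp-6, spp-7, spp-9, spp-14, spp-19, spp-20, spp-22, spp-24, spp-28 and spp-31). The 2 wild-type comparisons leave out spp-7, spp-13, spp-19 and spp-20, whose counts were too low there. In whole worms, fewer cells of a type and less RNA per cell cannot be told apart.

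Intestinal markers were called in both directions in mutants and in wild type at 0 h, and only higher in wild type at 6 h. They were called higher in 3 of 8 and lower in 2 of 8 in mutants, higher in 4 of 8 in wild type at 6 h, and higher in 1 and lower in 3 of 8 in wild type at 0 h, and none of the 8 was at 0. Their part in the members' differences was not tested. Libraries were taken to be paired by replicate number within a strain and time, and with this number as a block more members and more of all genes passed. In mutants 23 members were then higher and 8 lower, beside 13.3% and 16.9% of all genes. With the block, 25 were higher and 5 lower in wild type at 6 h, beside 6.06% and 3.67%, and 18 were higher and 8 lower at 0 h, beside 9.35% and 8.74%. Among them, cpr-6, asp-17, spp-2 and spp-15 were higher at 0 h with the block (adjusted p = 0.0124, 0.00379, 0.00499 and 0.0476), as were spp-18 at 6 h (0.044) and spp-25 in mutants (0.0232). Without replicate 4 at 0 mM, the count in wild type at 6 h was 13, the lowest when single libraries were left out.

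**Figure D3:**
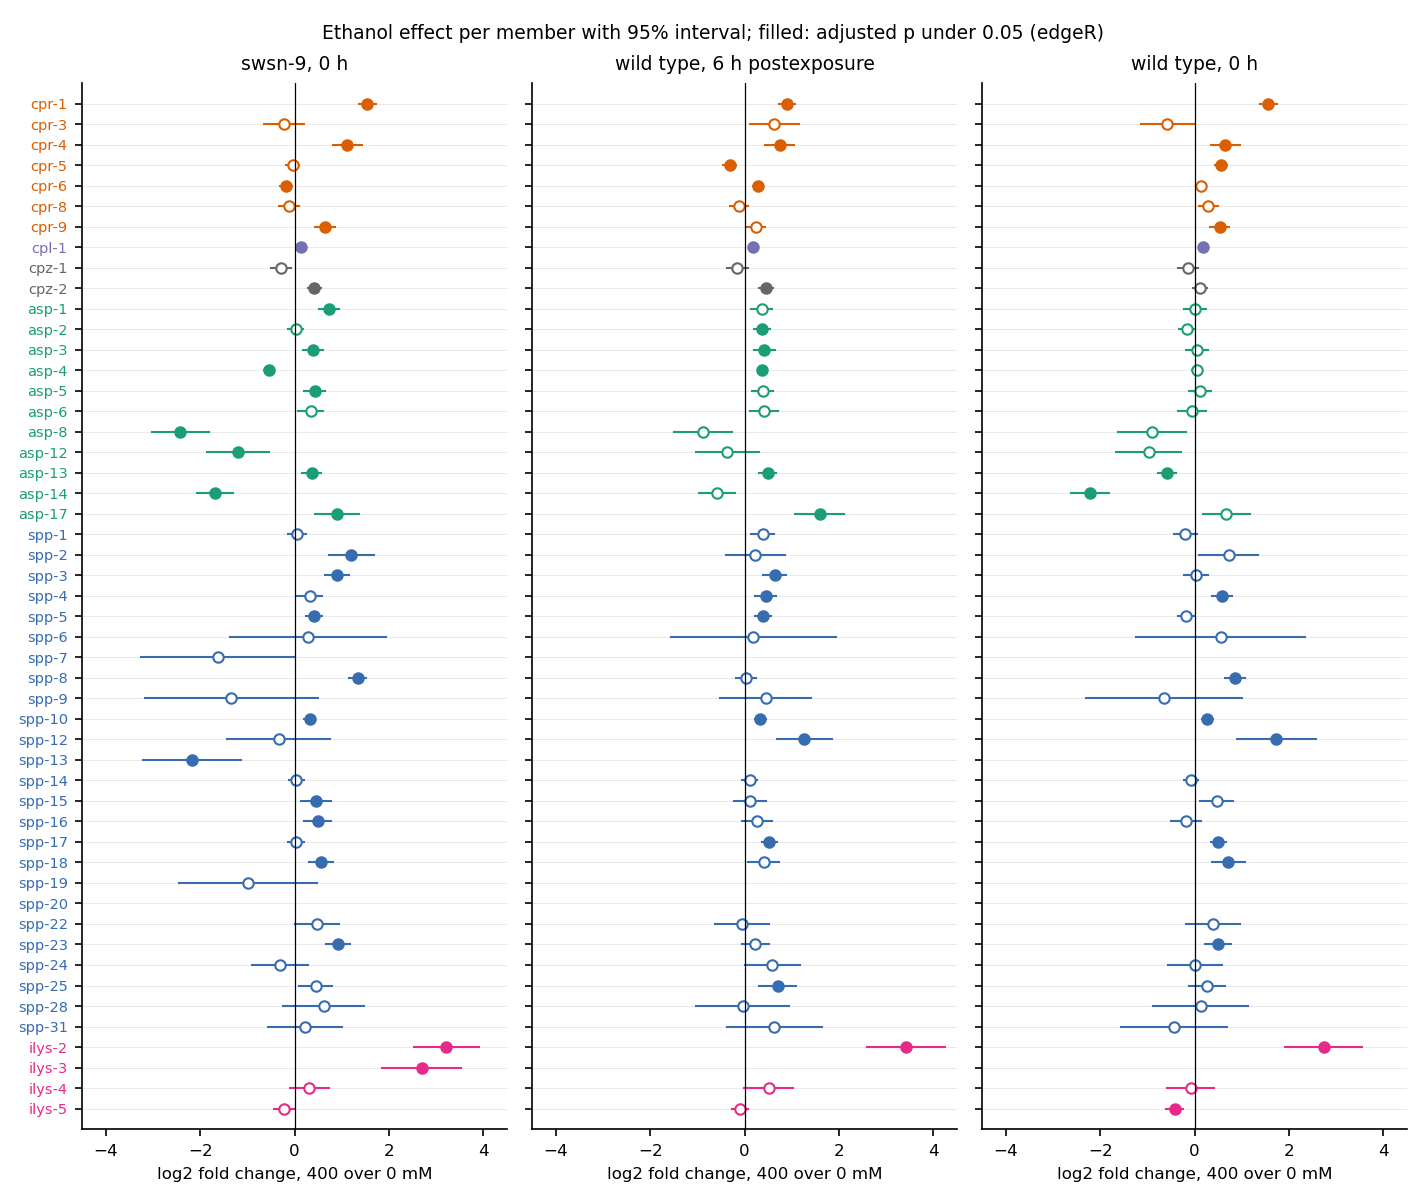
Log2 fold change of each member at 400 over 0 mM ethanol with its approximate 95% interval, in swsn-9 worms, in wild type at 6 h postexposure and in wild type at 0 h, with filled points for an adjusted p under 0.05. Points right of the line at 0 are higher at 400 mM, and 21, 18 and 13 filled points lie there in the 3 panels. Comparisons that rest on 3 reads or fewer in a group are not drawn.

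Among the cathepsin B-like genes, cpr-1 had the largest change with ethanol in all 3 settings. This gene (WBGene00000781, V:11975551-11976756 of WBcel235) encodes a cysteine protease of the gut. In swsn-9 worms, cpr-1 was at 1164, 1378, 1036, 1278 and 1144 CPM at 400 mM, against 426, 423, 349.6, 460.2 and 403 CPM at 0 mM. Wild-type worms at 6 h gave a similar picture, where the 5 libraries at 400 mM had 474, 484, 491, 370.4 and 375 CPM and those at 0 mM had 245, 274, 219.7, 213 and 233 CPM. For wild type at 0 h, the values were 586, 549.8, 506, 639 and 642 CPM at 400 mM and 189.8, 179, 201, 209 and 216 CPM at 0 mM. Every library at 400 mM thus lay above every library at 0 mM of the same strain and time. The log2 fold changes were 1.54 ± 0.09 in mutants (SE, adjusted p = 6.19e-14), 0.89 ± 0.086 in wild type at 6 h (adjusted p = 1.68e-06) and 1.56 ± 0.088 in wild type at 0 h (adjusted p = 3.31e-11). The effect in mutants differed from that in wild type at 0 h by −0.014, with a 95% interval of −0.26 to 0.23 on the log2 scale.

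Another gene of this family, cpr-4 (WBGene00000784, V:6614674-6615851), encodes a secreted cathepsin B and rose as well. Its levels were 625.0, 639, 513, 606 and 567 CPM in swsn-9 worms at 400 mM and 256, 271, 231, 362 and 238 CPM at 0 mM, without overlap (log2 fold change 1.12 ± 0.15, adjusted p = 2.47e-06). At 6 h in wild type they were 533, 577, 539, 395 and 379 CPM at 400 mM and 344, 387, 296, 213 and 212 CPM at 0 mM. Replicates 4 and 5 were the lowest in both of these groups, so the ranges overlapped, but within each replicate number the library at 400 mM was higher (log2 fold change 0.74 ± 0.16, adjusted p = 0.00796). At 0 h in wild type the log2 fold change was 0.65 ± 0.16 (adjusted p = 0.00737), again without overlap. With the replicate block, the effect of ethanol on cpr-4 was larger in mutants than in wild type (difference 0.48, adjusted p = 0.000975, against 0.246 without the block).

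Ethanol had opposite effects on cpr-5 at the 2 harvest times. Among wild-type worms at 6 h, cpr-5 was at 427, 511, 492, 425 and 426 CPM at 400 mM and 554, 626, 507, 560.4 and 604 CPM at 0 mM. At 0 h it was at 722, 729.7, 714, 781 and 791 CPM at 400 mM, against 538, 487, 458, 498 and 579 CPM at 0 mM, and the groups did not overlap. With overlapping ranges at 6 h, it was lower there (log2 fold change −0.32 ± 0.067, adjusted p = 0.00702), and it was higher at 0 h (0.56 ± 0.067, adjusted p = 2.92e-06). In mutants, cpr-5 averaged 533 ± 46.1 CPM at 400 mM and 548 ± 50.1 CPM at 0 mM (SD, n = 5 each), a difference whose 95% interval was −0.18 to 0.10 on the log2 scale.

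The other genes of the family changed less evenly. In mutants, cpr-9 was at 741, 921, 842, 944 and 771 CPM at 400 mM and 557, 629, 464, 602 and 441 CPM at 0 mM (log2 fold change 0.65 ± 0.11, adjusted p = 4.81e-05). It was also higher with ethanol in wild type at 0 h (1215 against 848 CPM, 0.53 ± 0.10, adjusted p = 0.000916), and at 6 h it passed only with the block (0.24, adjusted p = 0.00293, against 0.213). Expression of cpr-6 was lower with ethanol in mutants (510.4, 641, 644, 614 and 562 CPM at 400 mM and 702, 727, 692, 673 and 581 CPM at 0 mM) and higher in wild type at 6 h (878, 885, 891, 965 and 967 CPM at 400 mM and 727, 788, 720.5, 746 and 789 CPM at 0 mM). These differences were small, with log2 fold changes of −0.18 ± 0.065 (adjusted p = 0.0368) and 0.29 ± 0.055 (adjusted p = 0.00344), and the decrease in mutants had an adjusted p of 0.12 in a fit of the compared groups only. The low gene cpr-3, at 14.5 CPM with ethanol at 6 h, passed in wild type only with the block (log2 fold change 0.63 at 6 h, adjusted p = 0.00186, and −0.58 at 0 h, adjusted p = 0.00765), and cpr-8 only with the block at 0 h (0.29, adjusted p = 0.00624).

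The transcript of cpl-1, which encodes cathepsin L, rose by a small amount in all 3 comparisons. It was at 1466, 1706, 1597, 1648 and 1574 CPM in mutants at 400 mM and 1487, 1565, 1456, 1423 and 1339 CPM at 0 mM, groups that overlapped. For wild type at 6 h, the 5 libraries at 400 mM lay between 1285 and 1315 CPM, all above those at 0 mM (1075 to 1212 CPM). The log2 fold changes were 0.14 ± 0.048 in mutants (adjusted p = 0.0385), 0.18 ± 0.045 in wild type at 6 h (adjusted p = 0.0214) and 0.17 ± 0.045 at 0 h (adjusted p = 0.0116). Alternatives ended all 3 of these calls. The call in mutants was lost without any of 9 single libraries (adjusted p up to 0.242), that at 6 h in 8 alternatives (up to 0.12) and that at 0 h in 2 (up to 0.0591). The cathepsin Z-like cpz-2 was higher with ethanol in mutants (61.4 against 45.9 CPM, 0.42 ± 0.072, adjusted p = 7.05e-05) and in wild type at 6 h (41.2 against 30.04 CPM, 0.46 ± 0.074, adjusted p = 0.000749). Its relative cpz-1, a protease of moulting, had negative log2 fold changes of −0.29 in mutants, −0.16 at 6 h and −0.14 at 0 h, which passed only with the block (adjusted p = 0.00125, 0.027 and 0.0289).

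The aspartyl proteases divided into genes that were higher and genes that were lower with ethanol. In mutants, asp-1, asp-3, asp-5, asp-13 and asp-17 were called higher and asp-4, asp-8, asp-12 and asp-14 lower. Most abundant was asp-1 (WBGene00000214, V:19049562-19050752), at 2574, 2799, 2359.9, 2753 and 2269 CPM in mutants at 400 mM, against 1580.1, 1589.9, 1406, 1648 and 1424 CPM at 0 mM. All libraries at 400 mM lay above those at 0 mM, and the log2 fold change was 0.74 ± 0.11 (adjusted p = 7.09e-06). For wild type at 0 h, asp-1 had 1852, 1565, 1433, 1762 and 1748 CPM at 400 mM and 1669, 1322, 1308, 2047 and 2045 CPM at 0 mM, and the 95% interval of the difference was −0.23 to 0.23. At 6 h the libraries had 1996, 1930.2, 1858, 1598 and 1632 CPM at 400 mM and 1488, 1718, 1378, 1210.0 and 1257 CPM at 0 mM, a difference of 0.36 ± 0.12 that passed only with the block (adjusted p = 0.000364, against 0.0897 without it).

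The replicates of asp-1 followed a pattern that several of its relatives shared. In wild type at 0 h and 0 mM, replicates 4 and 5 were the highest for asp-1, asp-2, asp-3, asp-5 and asp-6. In both groups at 6 h, replicates 4 and 5 were the lowest for asp-1, asp-3, asp-5, asp-6 and asp-12. These differences between replicates set the spread of asp-6, which had 1464, 1448, 1436, 1050.1 and 1114 CPM at 400 mM and 1106, 1244, 1049, 758 and 768 CPM at 0 mM at 6 h. Within each replicate number asp-6 was higher at 400 mM, and the log2 fold change was 0.41 (adjusted p = 0.146 without the block and 0.000106 with it). In mutants, where asp-6 had 1252, 1342, 1195, 1284 and 1168 CPM at 400 mM and 979, 917, 939.9, 1162 and 925 CPM at 0 mM, the ranges did not overlap and the adjusted p values were 0.0668 and 0.000192 (log2 fold change 0.34). Its relative asp-2 in wild type at 6 h averaged 578 ± 51.6 CPM at 400 mM and 449 ± 52.2 CPM at 0 mM (0.37 ± 0.088, adjusted p = 0.0186), a call lost in 6 alternatives, with an adjusted p of 0.0878 without replicate 4 at 0 mM. For asp-5 at 6 h (0.38), the adjusted p was 0.068 without and 0.000101 with the block.

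The proteases with a known part in necrotic cell death, asp-3 and asp-4, parted in the mutants. In swsn-9 worms, asp-3 was at 1075, 1106, 1005, 1156 and 993 CPM at 400 mM and 825, 800.3, 761, 919.9 and 759.5 CPM at 0 mM (log2 fold change 0.39 ± 0.11, adjusted p = 0.00741). In the same libraries asp-4 was at 149.6, 155, 166, 173 and 159.7 CPM at 400 mM and 246, 255, 232, 231 and 214 CPM at 0 mM, and fell without overlap (−0.55 ± 0.054, adjusted p = 5.57e-09). Among wild-type worms at 6 h, asp-4 was at 395, 373, 374, 411 and 415 CPM at 400 mM and 291, 305, 295, 305 and 323 CPM at 0 mM, and all libraries with ethanol were the higher ones (0.38 ± 0.052, adjusted p = 0.000151). At 0 h, asp-4 averaged 292 ± 10.4 and 282 ± 25.6 CPM at 400 and 0 mM, with a 95% interval of −0.046 to 0.16 for the difference. A rise of asp-3 in wild type at 6 h (0.42 ± 0.12, adjusted p = 0.0439) was lost in 10 alternatives, with an adjusted p of 0.143 without replicate 4 at 0 mM, and was clearer with the block (adjusted p = 7.4e-06).

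The largest decrease in wild type at 0 h was that of asp-14 (WBGene00019619, X:6444185-6446664). It was at 11.6, 7.51, 7.46, 9.63 and 8.88 CPM at 400 mM, against 39.9, 33.1, 30.8, 56.3 and 48.99 CPM at 0 mM. In mutants it was at 6.56, 5.72, 5.52, 8.91 and 7.84 CPM at 400 mM and 24.9, 23.1, 21.1, 23.4 and 18.7 CPM at 0 mM. Neither pair of groups overlapped, and the log2 fold changes were −2.21 ± 0.21 in wild type at 0 h (adjusted p = 7.79e-08) and −1.68 ± 0.20 in mutants (adjusted p = 1.51e-07). After 6 h of recovery, asp-14 averaged 17.7 ± 5.78 CPM in worms that had been at 400 mM and 26.9 ± 6.38 CPM in those at 0 mM, ranges that overlapped (−0.58 ± 0.20, adjusted p = 0.0983, and 0.000126 with the block). A larger decrease in mutants was that of asp-8, at 2.704, 2.05, 3.38, 3.297 and 3.85 CPM at 400 mM and 19.6, 15.2, 10.97, 18.3 and 17.4 CPM at 0 mM (−2.42 ± 0.30, adjusted p = 5.82e-07). In wild type asp-8 passed only with the block, with log2 fold changes of −0.88 at 6 h (adjusted p = 0.00145) and −0.90 at 0 h (adjusted p = 0.0059).

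In wild type the direction of asp-13 depended on the harvest time. At 6 h it was at 209, 214, 172, 238 and 237 CPM at 400 mM and 151, 159.6, 130.3, 163 and 159.8 CPM at 0 mM, and at 0 h at 151, 155, 107, 130.1 and 133 CPM at 400 mM and 179, 226, 197, 222 and 195 CPM at 0 mM. The groups did not overlap at either time. Relative to 0 mM, asp-13 was higher at 6 h (0.49 ± 0.093, adjusted p = 0.00326) and lower at 0 h (−0.58 ± 0.094, adjusted p = 0.000129). It was also higher with ethanol in mutants, harvested at 0 h (197 against 154 CPM, 0.36 ± 0.10, adjusted p = 0.011). That call was lost without replicate 3 at 0 mM of the mutants (adjusted p = 0.0758) and without replicate 1 or 5 at 400 mM. Of the remaining genes, asp-17 was higher in wild type at 6 h (7.599 against 2.52 CPM, 1.59 ± 0.27, adjusted p = 0.00102) and in mutants (0.89 ± 0.24, adjusted p = 0.00582). In mutants asp-12 was lower (41.3 against 94.2 CPM, −1.19 ± 0.33, adjusted p = 0.00887), and in wild type it passed only with the block (−0.98 at 0 h, adjusted p = 2.75e-05, and −0.37 at 6 h, adjusted p = 0.0266).

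**Figure D4:**
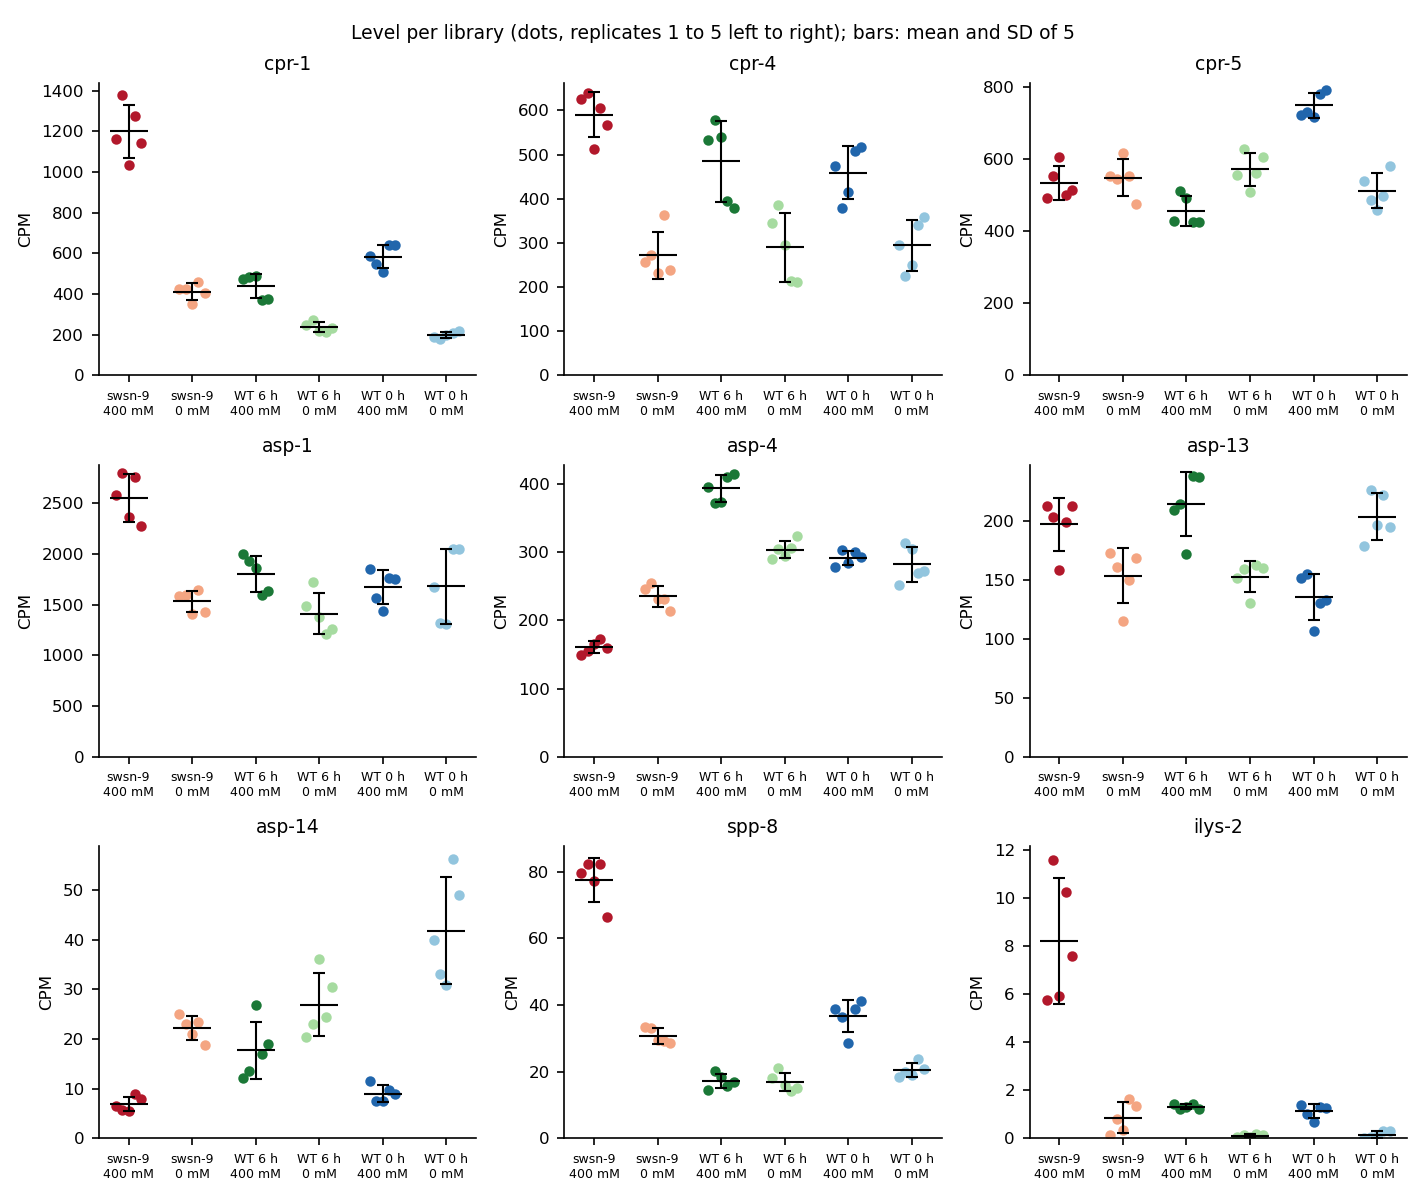
Level in CPM of 9 members in every library of the 6 groups, with replicates 1 to 5 from left to right within a group and the mean and SD of 5 as bars. For cpr-1 all libraries at 400 mM lie above those at 0 mM of the same strain and time, for asp-14 they lie below at 0 h in both strains, and asp-13 lies above at 6 h and below at 0 h in wild type.

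The saposin-like genes rose with ethanol more often than they fell. In mutants 9 of 25 were called higher and 1, spp-13, lower, and in wild type 7 of 21 were higher at each harvest time and none lower. Over all genes, 10.1% were called higher and 14.3% lower in mutants. The shares in wild type were 2.78% and 1.16% at 6 h, and 6.81% and 5.94% at 0 h. The low gene spp-13 reached the count limit only through the mutant libraries, with most of its reads at 0 mM. The largest increase in mutants was that of spp-8 (WBGene00004993, IV:8481664-8483621). There it was at 79.7, 82.1, 77.2, 82.3 and 66.2 CPM at 400 mM, against 33.5, 32.98, 29.4, 29.1 and 28.7 CPM at 0 mM. In wild type at 0 h it was at 38.6, 36.5, 28.7, 38.7 and 41.03 CPM at 400 mM and 18.4, 20.03, 18.99, 23.8 and 20.8 CPM at 0 mM. Libraries at 400 mM were the higher ones in both strains, with log2 fold changes of 1.34 ± 0.10 in mutants (adjusted p = 7.49e-12) and 0.85 ± 0.11 in wild type (adjusted p = 6.7e-06). At 6 h, spp-8 averaged 17.1 ± 2.196 CPM at 400 mM and 16.9 ± 2.74 CPM at 0 mM, with a 95% interval of −0.19 to 0.25 for the difference.

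Unlike spp-8, spp-17 was higher with ethanol in wild type at both times. It was at 265, 309, 279.6, 322 and 348 CPM at 400 mM and 225, 248, 206, 186 and 197 CPM at 0 mM at 6 h (0.53 ± 0.083, adjusted p = 0.000586). At 0 h the values were 303, 306, 306, 377 and 313 CPM at 400 mM and 255, 227, 200.3, 239 and 220.5 CPM at 0 mM (0.50 ± 0.083, adjusted p = 0.000188). In mutants spp-17 averaged 298 ± 36.1 CPM at 400 mM and 292 ± 19.1 CPM at 0 mM, and the 95% interval of the difference was −0.14 to 0.19. Without ethanol, spp-17 was higher in mutants than in wild type (0.36 ± 0.085, adjusted p = 0.00092).

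Caenopore genes with pore-forming products differed among themselves. One of them, spp-5, was at 228, 261, 226, 264 and 216 CPM in mutants at 400 mM and 168, 211, 159.8, 176 and 189 CPM at 0 mM (0.40 ± 0.087, adjusted p = 0.000916). It was also higher in wild type at 6 h (167 against 128 CPM, 0.38 ± 0.084, adjusted p = 0.00939, and 0.057 without replicate 4 at 0 mM). At 0 h its log2 fold change was −0.19, lower only with the block (adjusted p = 0.0396). The antibacterial spp-1 did not pass in mutants (31.9 and 30.96 CPM at 400 and 0 mM, 95% interval −0.15 to 0.24) or in wild type at 0 h, and in wild type at 6 h it passed only with the block (0.38, adjusted p = 0.0247). For spp-3, the levels were 106, 121, 101, 108 and 88.3 CPM in mutants at 400 mM and 52.6, 61.8, 46.2, 60.3 and 60.1 CPM at 0 mM (0.90 ± 0.12, adjusted p = 2.83e-06). It was also higher in wild type at 6 h (94.2 against 60.9 CPM, 0.63 ± 0.13, adjusted p = 0.00587), whereas the interval at 0 h was −0.22 to 0.28.

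The gene spp-10, which like human prosaposin encodes several saposin domains, rose by a similar small amount in all settings. Its log2 fold changes were 0.32 ± 0.056 in mutants (adjusted p = 8.36e-05), 0.34 ± 0.058 in wild type at 6 h (adjusted p = 0.00145) and 0.27 ± 0.059 at 0 h (adjusted p = 0.00285), at group means between 118 and 157 CPM. Further saposins were called in part of the comparisons. In mutants, spp-2 (1.202), spp-23 (0.92), spp-18 (0.56), spp-16 (0.49) and spp-15 (0.45) were higher. At 0 h in wild type, spp-18 (0.71), spp-4 (0.58) and spp-23 (0.50) were higher, and at 6 h spp-4 (0.45) and spp-25 (0.70). Single libraries ended several of these calls. The call of spp-25 at 6 h was lost without any of 9 libraries (adjusted p up to 0.13), that of spp-15 in mutants without any of 7 (up to 0.169) and that of spp-4 at 6 h without any of 5 (up to 0.0896). The call of spp-16 in mutants was lost without replicate 1 at 400 mM (adjusted p = 0.0574), and that of spp-23 in wild type without replicate 3 at 0 mM (0.0657). Exons of spp-15 and C48E7.6 overlap on opposite strands by 243 bp, and those of spp-16 and F32D8.7 by 170 bp. The abundant T07C4.3 shares 19 bp with spp-1, and asp-2, asp-4, cpr-4, cpz-2 and spp-19 share 21 to 84 bp with genes of low count. For spp-19 that gene, twk-10, averaged 5.8 counts, above the 1.73 of spp-19 itself. Since the strand used in counting is not stated, reads within these overlaps cannot be told apart.

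At low levels, spp-12 had a pattern of its own. In wild type at 6 h it was at 3.698, 5.65, 5.81, 6.62 and 4.46 CPM at 400 mM and 1.496, 2.26, 0.739, 3.41 and 2.96 CPM at 0 mM, and at 0 h at 1.56, 1.22, 1.07, 0.8702 and 1.42 CPM at 400 mM and 0.434, 0.351, 0.706, 0.062997 and 0.322 CPM at 0 mM. Ethanol groups were higher without overlap at both times (1.27 ± 0.30, adjusted p = 0.0165, and 1.73 ± 0.43, adjusted p = 0.00835), and the call at 6 h was lost without replicate 1 at 0 mM (0.052). In mutants spp-12 averaged 0.2096 ± 0.145 CPM at 400 mM and 0.254 ± 0.152 CPM at 0 mM, from 1 to 7 reads per library. In mutants spp-13 had 1, 3, 6, 5 and 4 reads at 400 mM and 13, 15, 17, 10 and 22 reads at 0 mM, and was lower with ethanol (−2.17 ± 0.53, adjusted p = 0.00303). No wild-type library held more than 3 reads of spp-13. The genes spp-7, spp-19 and spp-20 were near the limit of detection as well, with at most 9, 8 and 18 reads in a library.

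The lysozyme ilys-2 (WBGene00016669, IV:2467678-2468879) showed the largest fold change with ethanol of all members in each of the 3 settings. In mutants it was at 5.77, 11.6, 5.92, 10.3 and 7.58 CPM at 400 mM, against 0.118, 0.814, 0.359, 1.66 and 1.35 CPM at 0 mM. For wild type at 6 h, the libraries at 400 mM held 19, 20, 25, 25 and 28 reads and those at 0 mM 1, 2, 1, 3 and 2 reads, and at 0 h they held 17, 14, 12, 21 and 25 reads at 400 mM and 0, 1, 1, 5 and 4 reads at 0 mM. No ethanol library overlapped with a library of its control. The log2 fold changes were 3.21 ± 0.35 in mutants (adjusted p = 4.44e-08), 3.41 ± 0.42 in wild type at 6 h (adjusted p = 5.99e-05) and 2.73 ± 0.42 at 0 h (adjusted p = 7.11e-05). At control levels of 0 to 5 reads, the size of the wild-type changes is known only roughly. Its neighbour ilys-3, whose product helps to break up bacteria in the digestive tract, was at 5.17, 8.55, 3.098, 3.49 and 4.49 CPM in mutants at 400 mM and 0.412, 0.882, 0.215, 0.608 and 1.61 CPM at 0 mM (2.69 ± 0.43, adjusted p = 2.55e-05). In wild type ilys-3 was near the limit of detection. At 6 h it had 1, 2, 3, 11 and 2 reads at 400 mM and 0, 1, 0, 0 and 1 reads at 0 mM, a ratio of 8.18 with a counting interval of 1.97 to 72.5, and it did not pass (adjusted p = 0.135).

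The abundant ilys-5 went the other way. In wild type at 0 h it was at 337, 346, 263, 334 and 287 CPM at 400 mM, below all libraries at 0 mM (425, 388, 372, 501 and 423 CPM), and the log2 fold change was −0.42 ± 0.09 (adjusted p = 0.00241). In mutants ilys-5 averaged 407 ± 52.5 CPM at 400 mM and 473 ± 85.6 CPM at 0 mM, which passed only with the block (−0.22, adjusted p = 0.0498). At 6 h it averaged 316 ± 21.9 and 339 ± 47.05 CPM at 400 and 0 mM, with a 95% interval of −0.27 to 0.079. No comparison with ethanol called ilys-4, at 1.19 to 2.86 CPM per group.

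The effect of ethanol at 6 h was then set against that at 0 h in wild type, by the interaction of ethanol and harvest time. Of 46 members, 5 had a higher effect at 6 h and 3 a lower one, beside 3.1% and 2.18% of all genes. The higher ones were asp-14 (1.63 ± 0.28, adjusted p = 0.000651), asp-13 (1.08 ± 0.13, adjusted p = 1.16e-05), spp-5 (0.57 ± 0.12, adjusted p = 0.00409), asp-2 (0.52 ± 0.12, adjusted p = 0.0128) and asp-4 (0.32 ± 0.074, adjusted p = 0.00903). Effects are compared with their sign, so that for asp-14 the higher effect was a smaller decrease at 6 h (−0.58) than at 0 h (−2.21). Lower were cpr-5 (−0.87 ± 0.095, adjusted p = 3.23e-06), spp-8 (−0.83 ± 0.16, adjusted p = 0.00161) and cpr-1 (−0.67 ± 0.12, adjusted p = 0.000988). Of the 5 with a higher effect at 6 h, 4 were aspartyl proteases. All 11 aspartyl proteases had a positive difference of effects, with a median of 0.46 on the log2 scale, against a median of 0.0017 over all genes. In the same contrast the median was 0.50 for the lys lysozymes, 0.28 for the intestinal markers and 0.11 for other gut and lysosome hydrolases. The 11 genes were measured in the same libraries and several shared a replicate pattern, so their signs are not independent. For cpr-4 the difference between times was 0.093 (95% interval −0.35 to 0.53) and for spp-17 0.026 (−0.20 to 0.25). With the block 20 members passed, 15 higher and 5 lower, beside 5.66% and 4.07% of all genes under the same block. Newly called were asp-1, asp-3, asp-5, asp-6, asp-17, cpr-3, cpz-2, spp-1, spp-3 and ilys-5 as higher, and cpr-8 and cpr-9 as lower, with adjusted p values between 0.0002 and 0.0431.

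The effect of ethanol in mutants was also set against that in wild type at 0 h. It was higher in mutants for 5 of 50 members and lower for 3, beside 1.4% and 2.75% of all genes. Higher were asp-13 (0.95 ± 0.15, adjusted p = 0.000164), spp-3 (0.88 ± 0.18, adjusted p = 0.00248), asp-1 (0.74 ± 0.15, adjusted p = 0.00338), spp-5 (0.60 ± 0.12, adjusted p = 0.00338) and spp-8 (0.49 ± 0.14, adjusted p = 0.0353). Lower were asp-4 (−0.60 ± 0.076, adjusted p = 1.07e-05), cpr-5 (−0.59 ± 0.10, adjusted p = 0.000455) and spp-17 (−0.46 ± 0.12, adjusted p = 0.0201). Among the 5 members called higher in all 3 ethanol comparisons, none was called here without the block. The intervals were −0.26 to 0.23 for cpr-1, −1.05 to 2.03 for ilys-2, −0.16 to 0.11 for cpl-1 and −0.10 to 0.21 for spp-10. All of them include 0, so a difference in either direction remains possible for each, and the widest was that of ilys-2. The remaining gene, cpr-4, passed with the block. The call of spp-8 was lost without any of 10 single libraries (adjusted p up to 0.0916), and that of spp-17 without replicate 4 of wild type at 400 mM and 0 h (0.0521) and without the libraries rich in ribosomal RNA (0.063). With the block 17 members passed, 11 higher and 6 lower, beside 2.49% and 4.42% of all genes under the same block. The added ones were cpr-4, cpz-2, asp-3, asp-5, asp-6 and asp-14 as higher and cpr-6, cpr-8 and asp-8 as lower, with adjusted p values between 0.000975 and 0.0465. As effects carry their sign, asp-14 had a smaller and asp-8 a larger decrease with ethanol in mutants than in wild type. Both interactions use the same wild-type libraries at 0 h and are not independent of each other.

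**Figure D5:**
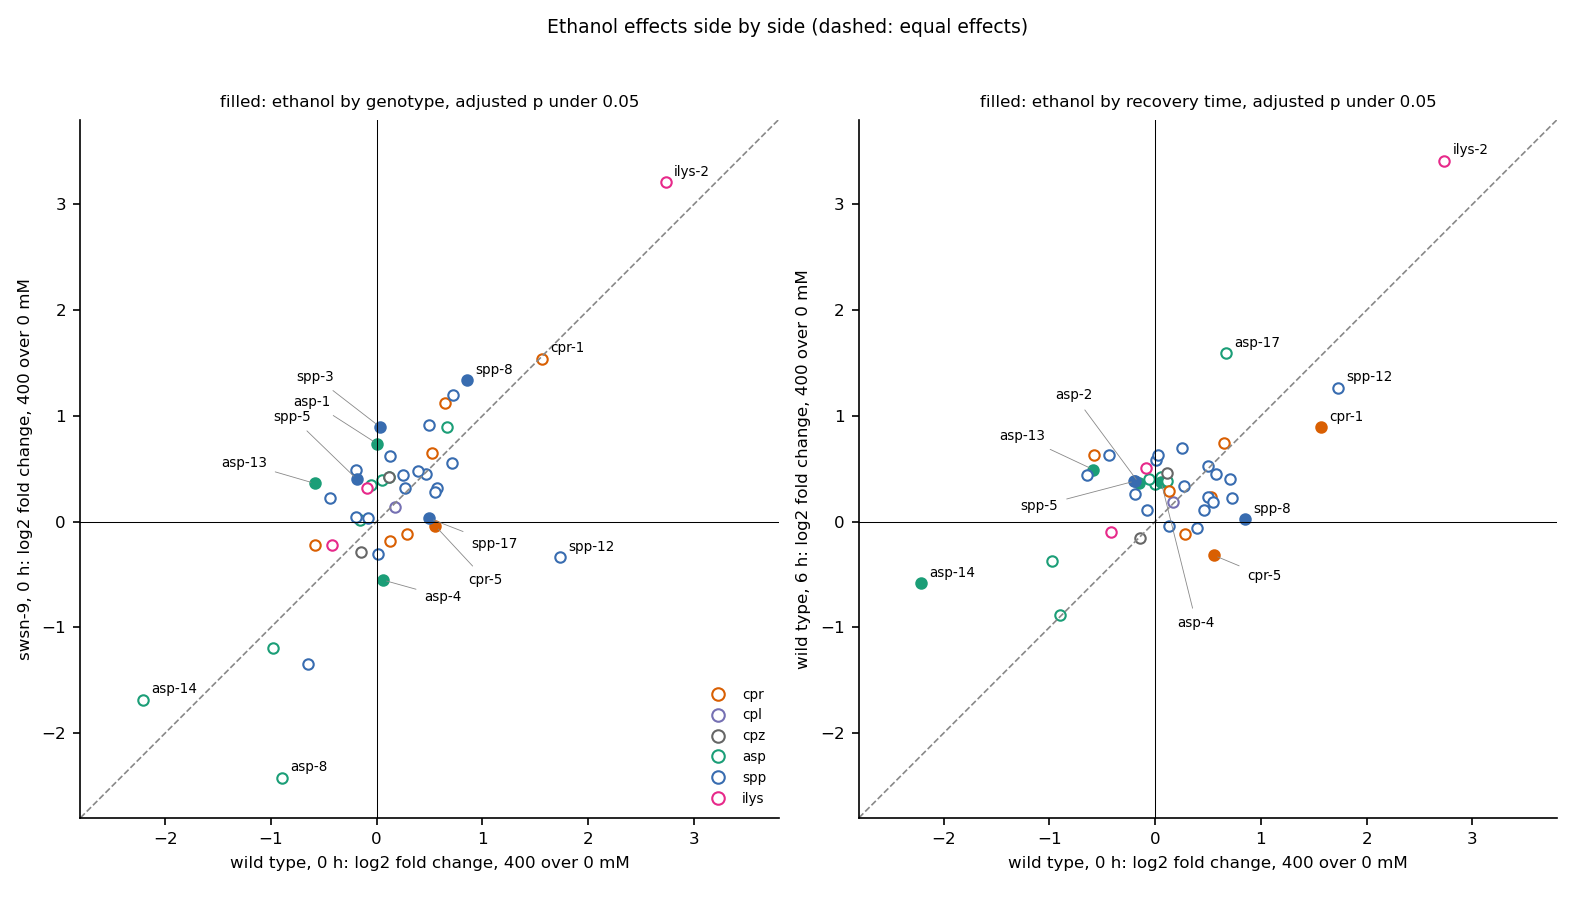
Log2 fold changes at 400 over 0 mM ethanol in swsn-9 worms (left) and in wild type at 6 h (right), each against wild type at 0 h, with 1 point per member, a dashed line of equal effects and filled points where the interaction had an adjusted p under 0.05. On the left cpr-1 lies on the dashed line and asp-4 and cpr-5 lie below it, and on the right asp-13 and asp-14 lie above it and cpr-1, cpr-5 and spp-8 below it.

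Without ethanol, wild-type worms at 6 h were older than those at 0 h and had spent these hours on fresh plates with bacteria. Of 46 members, 4 were higher at 6 h and 11 lower, beside 8.19% and 10.9% of all genes. Increases without overlap were those of spp-12, at 2.17 CPM at 6 h and 0.375 CPM at 0 h (2.57 ± 0.41, adjusted p = 0.000202), and of asp-8, at 10.4, 19.7, 9.9, 9.72 and 13.2 CPM at 6 h and 6.59, 2.32, 2.28, 5.04 and 6.35 CPM at 0 h (1.495 ± 0.33, adjusted p = 0.00359). Among those that were lower at 6 h, spp-5 had 136, 149, 125, 114 and 118 CPM at 6 h and 175, 182, 152, 203 and 189 CPM at 0 h (−0.48 ± 0.084, adjusted p = 0.000514). For cpl-1 the values were 1125, 1188, 1075, 1129.7 and 1212 CPM at 6 h and 1276, 1488, 1315, 1441 and 1364 CPM at 0 h (−0.26 ± 0.045, adjusted p = 0.000552). These 4 genes did not overlap between the times. Lower at 6 h were also asp-13 (−0.41), spp-4 (−0.49), spp-3 (−0.55), ilys-5, ilys-4, asp-17, asp-14, cpr-9 and spp-16, and higher were spp-9 (2.19) and cpr-1 (0.26). Single libraries ended the calls of asp-14, asp-17, cpr-1, cpr-9, ilys-4, ilys-5, spp-9 and spp-16. Of 8 intestinal markers 4 were lower at 6 h as well, and their part was not tested. The count of 15 was 9 without replicate 4 of either group, and 9 without the libraries rich in ribosomal RNA. With the replicate number matched across harvest times as a block, the count was 13, of them 3 higher and 10 lower. These stood beside 7.32% and 10.3% of all genes, and the calls of cpr-1 (adjusted p = 0.0623) and spp-16 (0.0537) were lost. No source states that replicates of different harvest times with the same number belong together.

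Without ethanol, 16 of the 50 members were higher in swsn-9 mutants than in wild type and 11 were lower, beside 23.2% and 22.3% of all genes. With the replicate number matched across strains as a block, 16 were again higher and 11 lower, beside 22.9% and 22.1%. No source states that replicates of the strains with the same number belong together. By family the directions differed. Of the saposins 10 of 25 were higher and 3 lower, while of the aspartyl proteases asp-8 alone of 11 was higher and 5 were lower. Among the 10 saposins, spp-7, spp-13 and spp-20 reached the mean count of 1 only through the mutant libraries. Their calls, and their part in the counts and in the saposin median, were thus partly set by the choice of members. The median log2 fold changes were 0.39 for the saposins and −0.21 for the aspartyl proteases, against 0.06 over all genes. The clearest increases were those of cpr-1, at 426, 423, 349.6, 460.2 and 403 CPM in mutants and 189.8, 179, 201, 209 and 216 CPM in wild type (1.05 ± 0.091, adjusted p = 1.19e-10), and of spp-18, at 15.5, 16.97, 17.1, 14.8 and 15.9 CPM in mutants and 6.68, 4.01, 3.69, 4.72 and 6.35 CPM in wild type (1.66 ± 0.15, adjusted p = 1.94e-10). The clearest decreases were those of cpz-1, at 289.8, 324, 263, 239.5 and 234 CPM in mutants and 429, 601, 525, 473 and 402 CPM in wild type (−0.85 ± 0.11, adjusted p = 3.21e-07), and of cpr-9, at 557, 629, 464, 602 and 441 CPM in mutants and 793, 746, 726, 1014 and 959.7 CPM in wild type (−0.65 ± 0.11, adjusted p = 1.19e-05). None of these 4 pairs of groups overlapped.

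Among the saposins of low abundance, spp-7 and spp-13 were counted almost only in the mutants. The gene spp-7 had 6, 0, 6, 5 and 9 reads in mutants at 0 mM and no read in any of the 20 wild-type libraries, which makes it at least 1.34-fold higher against a limit of 3 reads per library. For spp-13 the total was 77 reads in mutants at 0 mM and 3 in wild type at 0 mM and 0 h, a ratio of 20.7 with a counting interval of 6.81 to 102. Of the 20 reads of spp-20 in mutants at 0 mM, 18 came from replicate 4, and its call (adjusted p = 0.0169) was lost with DESeq2 (0.11) and in a fit of the compared groups only (0.0788). Mutants at 400 mM held 3 reads of spp-20, and wild type at 400 mM and 6 h held 5. At higher levels spp-1 was at 30.96 ± 0.699 CPM in mutants and 15.1 ± 1.997 CPM in wild type (1.03 ± 0.10, adjusted p = 2.8e-09), spp-2 at 16.5 ± 3.06 and 5.53 ± 2.89 CPM (1.57 ± 0.27, adjusted p = 1.97e-05) and asp-8 at 16.3 ± 3.38 and 4.52 ± 2.11 CPM (1.86 ± 0.30, adjusted p = 8.43e-06). Higher in mutants were also cpr-3, cpz-2, spp-8, spp-15, spp-17, spp-22, ilys-2 and ilys-3, and lower were asp-2, asp-4, asp-13, asp-14, spp-3, spp-4 and spp-14. Among the decreases, that of asp-5 (−0.31 ± 0.11, adjusted p = 0.0199) was lost in 7 alternatives (adjusted p up to 0.201), and that of cpr-6 (−0.23 ± 0.065, adjusted p = 0.00456) without replicate 5 of the mutants (0.0569). Markers of other tissues moved in the same contrast. All 10 neuronal and 4 of 8 intestinal markers were higher in mutants, as were 4 of 7 tested pharyngeal, 4 of 6 muscle and 4 of 7 hypodermal ones, while all 8 germline markers were lower. Neuronal markers summed to 347 to 402 CPM in mutants at 0 mM and 268 to 301 CPM in wild type, and germline markers to 5910 to 6969 CPM in mutants and 8573 to 9429 CPM in wild type. The pharyngeal marker phat-5 was at 0 in all wild-type libraries and the hypodermal marker sqt-1 at 0 in those harvested at 0 h. The part of these tissues in the members' differences was not tested.

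Some neighbouring members on the genome (WBcel235) were called in the same direction and others were not. On chromosome X, spp-3, spp-2, spp-6, spp-4 and spp-5 lie within positions 7314969 to 7320354. With ethanol in mutants the log2 fold changes of spp-3, spp-2, spp-4 and spp-5 were 0.90, 1.202, 0.32 (adjusted p = 0.0967, not called) and 0.40. In mutants against wild type at 0 mM, spp-2 was higher (1.57), spp-3 and spp-4 lower (−0.67 and −0.58) and the interval of spp-5 was −0.17 to 0.18, while spp-6 had at most 7 reads per library. On chromosome V, asp-6, asp-12 and asp-5 lie within 8267511 to 8274044, and with ethanol in mutants asp-12 was lower and asp-5 higher (0.42, adjusted p = 0.0047). Also on chromosome V, cpr-5 and cpr-8 are 565 bp apart, and without the block no comparison called cpr-8. On chromosome IV, spp-10 and spp-8 are 1007 bp apart, and both were higher with ethanol in mutants (0.32 and 1.34) and in wild type at 0 h (0.27 and 0.85). In wild type at 6 h only spp-10 was called (0.34, against 0.027 for spp-8), and in mutants against wild type at 0 mM only spp-8. The lysozymes ilys-3 and ilys-2, 2234 bp apart, were both higher with ethanol in mutants and in mutants against wild type at 0 mM. With ethanol in wild type only ilys-2 was called, at both times. On chromosome I, spp-17 and spp-23 are 1666 bp apart, and with ethanol both were higher in wild type at 0 h (0.50 and 0.50), whereas in mutants spp-23 was higher (0.92) and the interval of spp-17 included 0. In all, 20 members lie on chromosome V, 14 on X, 8 on IV, 5 on I, 2 on III and 1 on II.

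Other hydrolases of gut and lysosome were read for comparison, a list of 37 genes of which 36 were counted. In mutants 9 of the 36 were higher with ethanol and 6 lower, beside 10.1% and 14.3% of all genes. In wild type at 6 h 7 were higher and none lower, beside 2.78% and 1.16% of all genes. At 0 h 5 were higher and 5 lower, beside 6.81% and 5.94%. The glucosidase genes aagr-1 and aagr-2 were higher with ethanol in mutants (1.19 and 0.80 on the log2 scale), in wild type at 6 h (0.80 and 0.40) and at 0 h (0.99 and 0.92). The glucocerebrosidase gene gba-1, whose human counterpart needs a saposin as activator, was higher in mutants (1.305, adjusted p = 1.11e-08) and in wild type at 0 h (1.29, adjusted p = 2.92e-06). The peptidase gene pcp-3 was lower in mutants (−0.96) and in wild type at 0 h (−1.48) and higher at 6 h (0.81). A cystatin, cpi-2, which inhibits cysteine cathepsins, was higher in wild type at 6 h (0.21, adjusted p = 0.015) and at 0 h (0.21, adjusted p = 0.00554).

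Of 9 lys lysozymes tested, 2 were higher and 2 lower with ethanol in mutants, 3 higher and none lower in wild type at 6 h, and none higher and 1 lower at 0 h. Shares over all genes called higher and lower were 10.1% and 14.3% in mutants, 2.78% and 1.16% at 6 h, and 6.81% and 5.94% at 0 h. Of 8 transcription factors linked to gut and lysosome genes, 4 were higher with ethanol in mutants. They were pqm-1 (0.90), mxl-3 (0.64), the intestinal GATA factor elt-2 (0.49) and hlh-30 (0.28), the counterpart of a regulator of lysosomal genes. In wild type elt-2 was higher at 6 h (0.59, adjusted p = 0.00938) and pqm-1 at 0 h (0.77, adjusted p = 0.00948).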

How the data were processed

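Whole first-day adult hermaphrodites were profiled in 30 libraries (6 groups of 5, taken from the labels). The authors sequenced polyadenylated RNA from both ends of each fragment, aligned reads with STAR 2.6.0a after FastQC and deposited raw read counts per gene of uniquely aligned reads. Their annotation release is not given in the sources used here. Of 46739 identifiers, 46484 were found in the Ensembl 115 annotation of WBcel235, which gave positions and exon lengths. Which strand was counted is not given in the sources used here, and reads that align to several places were dropped, so close copies may be undercounted. Totals were 11812827 to 23505210 counts. No library was a copy of another of its group (60 pairs, lowest chi-square per gene 3.14).

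Tests were edgeR's quasi-likelihood test (edgeR 4.0.16, R 4.3.3) after scaling by TMM, on genes with a mean count of at least 1, Benjamini-Hochberg adjustment over all genes and a threshold of 0.05, with no fold limit. Wild-type contrasts used the 20 wild-type libraries and mutant contrasts all 30. A log2 fold change is given with its SE, derived from the F statistic, and intervals are 95%. Those of log2 fold changes use a normal approximation and can be narrower than the test implies. For cpr-3 in wild type at 0 h, for example, the interval was −1.14 to −0.024 at an unadjusted p of 0.0526 in edgeR's test. The scripts were tested on simulated data. As replicates came from different days, p-values measure the spread between such cultures.

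Exposures at 0 and 400 mM ran in parallel, per the study's methods, and the replicate number was taken to mark the day, although no source says so outright. The deviations of libraries that share a number correlated by 0.105 on average over 15 pairs (−0.118 to 0.329), and by over 0.1 in 8. A fit with the number as a block is therefore given where it changes a call. For ethanol effects and interactions the block was the number within a strain and harvest time. For the contrasts between times or strains at 0 mM, the number was matched across times or strains, which no source states.

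The 21 members named by rule were the 10 highest per kb and those with the smallest p in each comparison and direction. Their values per library are given for at least 1 comparison, and means elsewhere. Other members whose values are given were chosen after these were seen. The members, marker lists and other lists were chosen with earlier results of these data known. Alternatives were the DESeq2 test (1.42.0), its size factors, other count limits, other sets of libraries, the block and leaving out single libraries. Removal of ribosomal RNA genes, or of libraries over 5% of such counts, was added after seeing the data. Where both groups held 3 reads or fewer no fold is given. A search of promoters was not run, since no sequence was at hand.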

Additional observations from a re-analysis of the deposited data

Results flagged for a closer look

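Among 126 sets of 5 libraries, formed by the 21 members described in full and the 6 groups, 3 held a library that stood apart from the other 4. Chance alone flags about 1 in 20 such sets. The aspartyl protease asp-6 was at 1162 CPM in replicate 4 of swsn-9 at 0 mM, where the others lay between 917 and 979 CPM. The saposin spp-17 was at 377 CPM in replicate 4 of wild type at 400 mM and 0 h, against 303 to 313 CPM in the others. The protease asp-13 was at 158.5 CPM in replicate 3 of swsn-9 at 400 mM, against 199 to 213 CPM.

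The response to ethanol differed between 6 h and 0 h in wild type for 8 members, by the interaction term of edgeR. On the log2 scale the effect at 6 h minus that at 0 h was 1.63 for asp-14 (adjusted p = 0.000651), 1.08 for asp-13 (1.16e-05), 0.57 for spp-5 (0.00409), 0.52 for asp-2 (0.0128) and 0.32 for asp-4 (0.00903). It was −0.87 for cpr-5 (3.23e-06), −0.83 for spp-8 (0.00161) and −0.67 for cpr-1 (0.000988).

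The response also differed between swsn-9 and wild type at 0 h for 8 members. The effect in mutants minus that in wild type was 0.95 for asp-13 (adjusted p = 0.000164), 0.88 for spp-3 (0.00248), 0.74 for asp-1 (0.00338), 0.60 for spp-5 (0.00338) and 0.49 for spp-8 (0.0353). It was −0.60 for asp-4 (1.07e-05), −0.59 for cpr-5 (0.000455) and −0.46 for spp-17 (0.0201). For asp-13 and spp-17 these groups include the libraries named above. Of both sets, the calls of spp-8 and spp-17 in the comparison of genotypes were the ones lost under an alternative.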

How the results depend on the processing

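Of 120 calls of members over the 7 comparisons, 93 held under every alternative run, 27 were lost under at least 1 and none reversed. With the replicate block, which pairs libraries at 0 and 400 mM for ethanol effects, 26 members were called in wild type at 0 h, against 16 without it. The counts were 30 against 19 at 6 h, 20 against 8 for the difference between times and 17 against 8 for that between genotypes. Of the 120 calls, 2 were lost, namely cpr-1 and spp-16 between 6 h and 0 h at 0 mM, where the block matched numbers across times. Without the 3 libraries over 5% ribosomal RNA, 9 members were called between 6 h and 0 h at 0 mM, against 15, and 16 of the 120 calls were lost. Leaving out single libraries gave 24 to 28 calls for ethanol in mutants, 13 to 20 in wild type at 6 h and 16 to 18 at 0 h. It gave 8 to 10 for the difference between times, 7 to 11 for that between genotypes, 9 to 17 between 6 h and 0 h at 0 mM and 26 to 28 between genotypes at 0 mM. The count of 13 came without replicate 4 of wild type at 0 mM and 6 h, and that of 9 without the same library or replicate 4 at 0 mM and 0 h. DESeq2 and its size factors each ended 1 call, and removal of ribosomal RNA genes none. Members with a few reads per library can show only large differences at this depth.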
